A study of Mus musculus with 8 samples.

Results

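The genes described here are 9 protein-coding genes of mouse chromosome 4 that are known from pluripotent stem cells or the early embryo: Lin28a, Foxd3, Mycl, Id3, Jun, Klf17, Zfp352, Alpl and L1td1. They were taken by name from a fixed list that leaves out Klf4, and all 9 had a timing score, of 1301 measured protein-coding genes on the chromosome. Their replication timing was profiled with Repli-seq in mESC, which are mouse embryonic stem cells. The control group was the JM8N4 line, and the other group was mESC labelled as carrying a Klf4 enhancer deletion. Each group had 2 profiles, and each profile came from an early and a late S-phase library, so the 8 libraries gave 4 profiles. The labels give neither the deleted coordinates, nor whether 1 or both alleles were lost, nor the number of clones or separate cultures, so the spread between profiles may be technical.

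In S phase, large blocks of a chromosome are copied together, and the blocks differ in when this happens. Early blocks tend to be rich in active genes, late blocks tend to be poor in genes, and between them lie transition zones in which timing shifts steadily with position. Genes that maintain the pluripotent state often lie in early blocks in embryonic stem cells, and some of them move to later replication when cells differentiate. In Repli-seq, S-phase cells that took up the nucleotide analog BrdU are separated by their DNA content, and the newly made DNA of the early and of the late fraction is sequenced.

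The deposited table lists a timing score, without a stated unit, every 5 kb along chromosome 4 (mm10). A score above 0 was read as early replication, since midpoints of protein-coding genes lay at 15.1 per Mb where the mean score was above 0 and at 2.92 per Mb where it was below 0. A gene's score averages every position with a bin that overlaps the gene, from 1 position at Foxd3 to 12 at Alpl. Read counts are not part of the table and the depth of each profile is unknown. Over all 1301 genes the median difference, deletion minus control, was 0.14, and differences are read against that shift. Profiles carry the numbers 1 and 2 in both genotypes, and a difference within number 1 sets deletion 1 against control 1. The labels do not state that profiles of a number are pairs. Each SE is limma's, moderated over all genes, and does not measure the spread at a single gene alone.

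Promoter sequences of 3 of these genes are shown because the genes mark the range of results: Zfp352 was the late-replicating gene, L1td1 had the largest score difference, and Foxd3 shared a domain with L1td1 but had a difference close to the median of all genes. They are RefSeq sequences of GRCm38.p6, the same build as mm10, from 250 bases before to 50 after the annotated start, 5′ to 3′ on the strand of the gene. Capitals mark each CG dinucleotide.
Zfp352 (chr4:90218570-90218869, plus strand): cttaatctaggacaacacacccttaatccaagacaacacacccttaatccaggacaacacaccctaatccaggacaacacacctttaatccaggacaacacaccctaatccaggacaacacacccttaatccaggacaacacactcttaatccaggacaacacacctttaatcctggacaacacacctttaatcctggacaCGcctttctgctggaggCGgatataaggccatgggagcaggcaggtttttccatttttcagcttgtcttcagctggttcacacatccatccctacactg
L1td1 (chr4:98726504-98726803, plus strand): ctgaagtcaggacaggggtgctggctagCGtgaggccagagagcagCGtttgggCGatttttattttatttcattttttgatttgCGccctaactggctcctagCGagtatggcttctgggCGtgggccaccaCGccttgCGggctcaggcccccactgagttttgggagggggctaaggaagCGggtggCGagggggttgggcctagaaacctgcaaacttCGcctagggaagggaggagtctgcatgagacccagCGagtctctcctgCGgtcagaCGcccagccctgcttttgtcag
Foxd3 (chr4:99656049-99656348, plus strand): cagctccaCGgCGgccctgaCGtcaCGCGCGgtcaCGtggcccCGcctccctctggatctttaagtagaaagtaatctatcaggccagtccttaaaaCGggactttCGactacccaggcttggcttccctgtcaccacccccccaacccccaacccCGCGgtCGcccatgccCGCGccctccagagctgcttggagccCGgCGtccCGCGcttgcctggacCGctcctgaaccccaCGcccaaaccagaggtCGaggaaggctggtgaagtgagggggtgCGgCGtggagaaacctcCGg

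The Zfp352 window held 2 CG dinucleotides, that of L1td1 14 and that of Foxd3 25. The median over 1367 promoter windows, which cover 1067 of the measured genes, was 15. The Zfp352 window opens with a tandem repeat, and its most frequent word of 10 letters, GACAACACAC, occurred 9 times. On either strand, that word was found in 2 of the 1367 windows, or 0.146%, the Zfp352 window among them. Of the other genes, Mycl had 22 CG dinucleotides in its window, Id3 19, Jun 15, Lin28a 10 and Klf17 6. Alpl has 2 annotated starts, with 26 CG dinucleotides at the upstream one and 4 at the other. The count therefore varied widely among genes that all replicated early, and its relation to timing was not tested.

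In all 4 profiles, 8 of the 9 genes had a score above 0, and Zfp352 had a score below 0. Over all measured genes, 1037 of 1301 were above 0 in every profile. The median score of the 9 genes was 2.56 in control and 2.83 in deletion cells, beside 2.49 and 2.58 over all genes. From the earliest to the latest mean score the order was Klf17, Alpl, Lin28a, L1td1, Mycl, Id3, Foxd3, Jun and Zfp352. The ranges over the 4 profiles overlapped between all neighbours in that order from Klf17 to Foxd3, so no neighbours among those 7 genes were separated beyond the spread between profiles. Genes farther apart in the order could be: all 4 profiles of Klf17 lay above all those of Mycl, Id3 and Foxd3, and all of Lin28a above all of Id3 and Foxd3. Jun lay below the whole range of Foxd3, and Zfp352 below that of Jun.

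**Figure D1:**
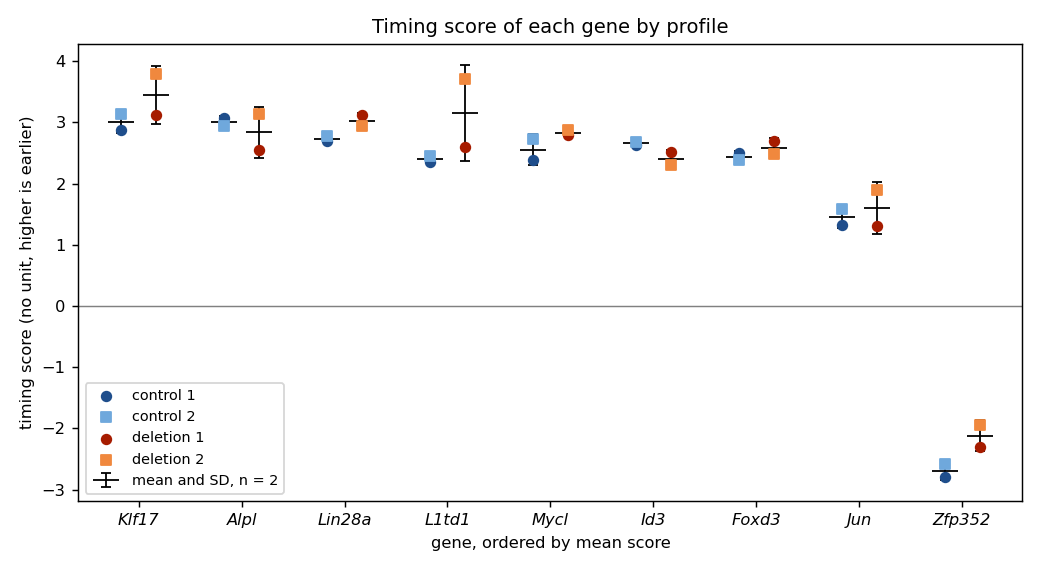
Timing score on the vertical axis (without unit, earlier replication towards the top) for each gene in the 2 control profiles (blue) and the 2 deletion profiles (red and orange), with group means and SD (n = 2). Zfp352 lies below 0 in all 4 profiles, Jun between 1.30 and 1.90, and the other 7 genes at 2.30 or above.

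Among the RNA-binding factors, Lin28a, which blocks the maturation of let-7 microRNAs, scored 2.70 and 2.77 in control 1 and control 2, against 3.12 and 2.94 in deletion 1 and deletion 2. Both deletion profiles lay above both controls, by 0.29 on average (SE 0.34). Lin28a spans 134003330 to 134019196 on chromosome 4, inside a domain of 10.9 Mb with a score above 0 that holds 206 measured genes. It lies 22.0% of the way along that domain, 2394 kb from the lower edge. The mean of the 4 profiles was 2.01 at 100 kb below the gene, 2.88 over it, 2.77 at 100 kb above it and 3.20 at 250 kb above it, so the gene sits where the score climbs out of a shallow dip in an early plateau. The stretch of positions around the gene in which the genotypes did not overlap was 90 kb long. At 100 kb on either side of the gene the difference was -0.14 and -0.06. The neighbour Dhdds, a gene of dolichol synthesis 2.37 kb away, shared the order of genotypes, with a difference of 0.44. Crybg2 on the other side had a difference of -0.29 with overlap of genotypes.

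L1td1 encodes an RNA-binding protein derived from a LINE-1 retrotransposon and is highly expressed in pluripotent cells. It scored 2.36 and 2.45 in the controls, against 2.60 and 3.71 with the deletion. Deletion 2 was the highest profile by 1.11, a gap that ranked 4 among 1301 genes, while the other 3 profiles lay within 0.25 of each other. The difference of 0.75 (SE 0.37) had the rank 12 from the highest among all genes. It was 0.24 within number 1 and 1.26 within number 2, and it was 0.20 without deletion replicate 2 and 1.31 without deletion replicate 1. L1td1 had the lowest unadjusted p of the 9 genes, 0.0489, and did not pass the test across all genes (limma, adjusted p = 0.999).

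L1td1 (98726754 to 98738486) lies 385 kb above the lower edge of an early domain of 1.72 Mb, at the top of a steep rise. The maximum of the domain in the mean profile, 2.92, lies 34.9 kb above the gene midpoint. The mean of the 4 profiles was -0.88 at 500 kb below the gene, 0.34 at 250 kb below, 1.79 at 100 kb below and 2.74 at 100 kb above it. Both deletion profiles were above both controls over 190 kb around the gene, from 98600000 to 98789999. The largest difference in that stretch was 0.90, at 98650000, on the slope below the gene. Kank4, the neighbour 16.4 kb above, which encodes an ankyrin repeat protein, had both deletion scores above both controls, with a difference of 0.56. Patj, the neighbour below, a gene for a cell polarity scaffold, differed by 0.45 with overlap of genotypes.

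**Figure D2:**
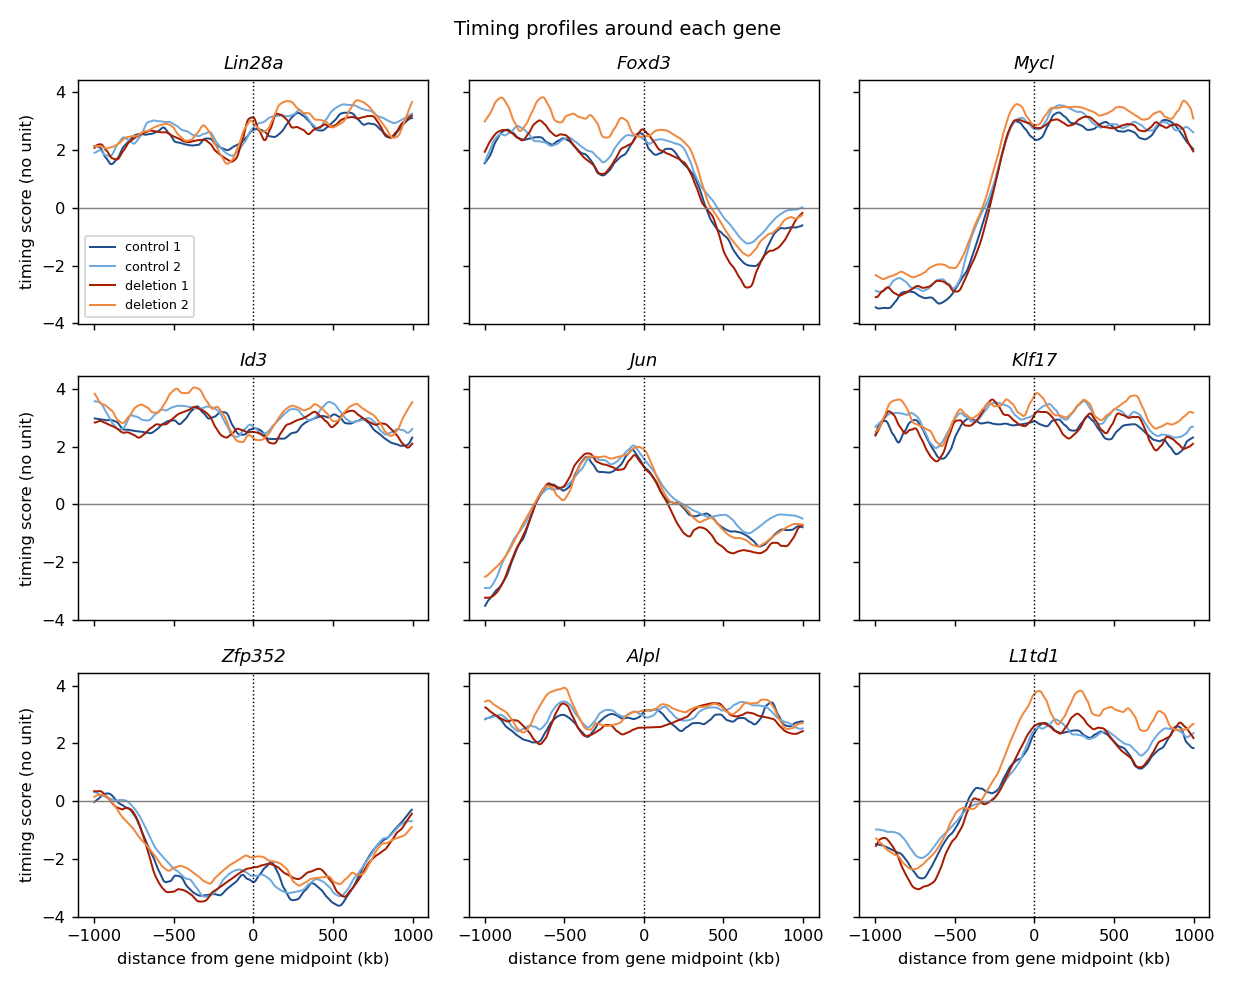
Timing score (vertical axis, no unit) against distance from the gene midpoint in kb for the 4 profiles, 1 panel per gene, with score 0 as a grey line. Mycl, Jun, Foxd3 and L1td1 lie within 500 kb of a change of sign, Lin28a, Id3, Klf17 and Alpl lie on early plateaus, and Zfp352 lies in a late trough.

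Of the transcription factor genes, Foxd3, a forkhead factor needed for the epiblast, shares its early domain with L1td1 and lies near the opposite edge. It spans 99656299 to 99658671, 412 kb below the upper edge. It scored 2.50 and 2.38 in the controls, against 2.70 and 2.48 with the deletion, so the genotypes overlapped and the difference, 0.15, was close to the median of all genes. The domain holds 13 measured genes, and deletion 2 was the highest profile at 11 of them, beside 789 of all 1301 genes. The exceptions were Foxd3, whose score rests on 1 position, and Tm2d1, the gene at the lower edge. At 100 kb below and above Foxd3, deletion 2 was the highest profile, at 2.95 and 2.70. The difference there was 0.30 and 0.22. Scores of close neighbours change together along the chromosome, so the genes of this domain are not separate observations.

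Mycl encodes a member of the Myc family of transcription factors. It scored 2.38 and 2.74 in the controls, against 2.79 and 2.87 with the deletion, so control 2 and deletion 1 nearly met. The difference was 0.27 (SE 0.34), and 0.10 without control replicate 1. Its neighbours Mfsd2a and Trit1 had like differences of 0.25 and 0.28, and the stretch without overlap of genotypes was 90 kb long. Mycl (122995588 to 123002490) lies at 6.07% of the length of an early domain of 4.96 Mb, just inside its lower edge. The mean score climbed from -2.65 at 500 kb below the gene to 3.17 at 100 kb below it. Mycl itself sits behind that rise, in a shallow dip of the plateau.

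Jun, a subunit of the AP-1 transcription factor, had the lowest score of the early genes. It scored 1.32 and 1.59 in the controls, against 1.30 and 1.90 with the deletion, a difference of 0.15 with opposite signs within the replicate numbers, -0.02 in number 1 and 0.31 in number 2. Its early domain is the shortest among these genes, 868 kb with 9 measured genes, and never exceeded 1.89 in the mean profile. Jun (95049036 to 95052222) lies 63.1 kb from that maximum. Above the gene the score fell to 0.64 at 100 kb and to -0.29 at 250 kb, and Jun lay nearer to a zero crossing than the other 8 genes. Fggy, a carbohydrate kinase gene and the next measured gene above, lies 505 kb away beyond that crossing. It scored -1.10 and -0.64 in the controls, against -1.56 and -1.19 with the deletion, so it was later in both deletion profiles.

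Klf17, a zinc finger gene of the same family as Klf4, had the highest mean score of the 9 genes and ranked 77 from the earliest among 1301. It scored 2.88 and 3.14 in the controls, against 3.12 and 3.79 with the deletion. The difference was 0.44 (SE 0.35), the genotypes overlapped, and it was 0.11 without deletion replicate 2 and 0.78 without deletion replicate 1. Klf17 (117756659 to 117765666) lies near the middle of an early domain of 4.26 Mb with 103 measured genes. Klf4 itself, beside these genes, scored 2.24 and 2.73 in the controls, against 1.77 and 2.89 with the deletion, with a range that covers that of the controls. That score covers the Klf4 gene alone and does not describe the timing of the positions beside it.

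Id3 encodes a protein that binds basic helix-loop-helix factors and keeps them off DNA, and it is induced by BMP signalling. It scored 2.63 and 2.68 in the controls, against 2.51 and 2.30 with the deletion. Of the 9 genes it was the one with both deletion scores under both control scores, with a difference of -0.25 (SE 0.34). The difference had the same sign within both numbers, -0.12 and -0.39, was -0.14 without deletion replicate 2, and ranked 1222 from the highest of 1301. The stretch without overlap of genotypes was 115 kb long and included the neighbour E2f2, a cell cycle transcription factor gene, with a difference of -0.19. Rpl11, the neighbour on the other side, had a difference near 0. Id3 (136143822 to 136145392) lies in the same domain of 10.9 Mb as Lin28a, where its rank from the earliest was 159 among 206 genes. It sits in a dip of that domain, since the mean score was 2.53 over the gene, 3.13 at 250 kb below it and 3.02 at 250 kb above it.

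Alpl encodes tissue-nonspecific alkaline phosphatase, the enzyme behind a common stain for undifferentiated stem cells. It lies in the same domain as Lin28a and Id3, spans 137741731 to 137796384 and is the longest of the 9 genes, at 54654 bases. It scored 3.07 and 2.94 in the controls, against 2.55 and 3.14 with the deletion. The deletion profiles lay on opposite sides of both controls, and the difference of -0.17 was -0.52 in number 1 and 0.19 in number 2. It was 0.13 without deletion replicate 1. Within 1 Mb on either side the mean score stayed between 2.60 and 3.43 at the distances sampled, so Alpl lies on an early plateau without a nearby transition.

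Zfp352 encodes a zinc finger protein known from the preimplantation embryo. It was late in every profile, at -2.80 and -2.59 in the controls, against -2.30 and -1.94 with the deletion. Both deletion profiles were less late than both controls, by 0.57 (SE 0.34), which ranked 56 from the highest of 1301 genes. The difference was 0.50 within number 1 and 0.65 within number 2, and ranged from 0.39 to 0.75 with single profiles left out. The stretch without overlap of genotypes was 165 kb long, from 90155000 to 90319999, and the difference reached its maximum of 0.58 at the gene.

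Zfp352 (90218820 to 90225687) lies in a late domain of 5.03 Mb that holds 5 measured protein-coding genes. The nearest of them are Dmrta1, 524 kb below, and Elavl2, 986 kb above. The mean score was -2.41 over the gene, -3.07 at 250 kb below it and -3.01 at 250 kb above it, so Zfp352 sits on a small rise at the bottom of a trough. Dmrta1, a DM domain gene, differed by -0.32 and Elavl2, a neuronal RNA-binding protein gene, by 0.13, with overlap of genotypes at both. At 250 and 500 kb above Zfp352, where no measured gene lies, the deletion profiles were again both above the controls, by 0.58 and 0.52.

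**Figure D3:**
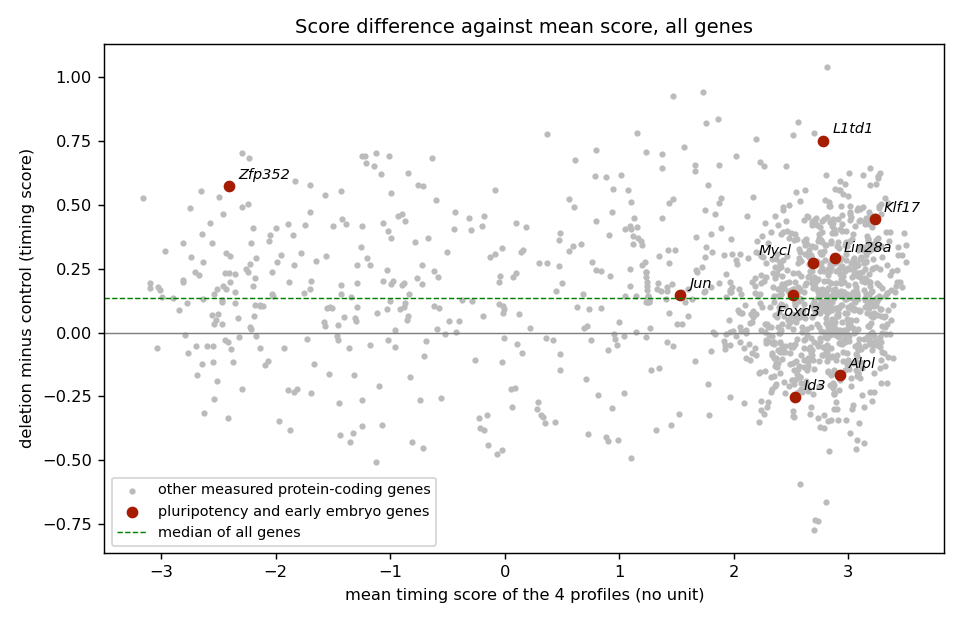
Score difference, deletion minus control (vertical axis, group means, no unit), plotted over the mean score of the 4 profiles (horizontal axis) for 1301 genes, with the 9 genes in red and the median of all genes as a dashed line. L1td1, Zfp352 and Klf17 lie highest of the 9 and Id3 lowest, all inside the cloud of other genes.

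By limma across all genes, without a term for the replicate number, 0 of the 9 genes rose and 0 fell, while 9 missed the threshold (adjusted p = 0.999 for each). Over all 1301 genes 0 passed (0%), and 17, or 1.31%, had an unadjusted p under 0.05, beside 1 of the 9, L1td1. Both deletion profiles lay above both controls at 4 of the 9 genes, Lin28a, Mycl, Zfp352 and L1td1, beside 15.1% of all genes, and below them at 1, Id3, beside 6.53%. For each of these 5 genes the exact two-sided permutation p was 0.333, the smallest that 2 profiles against 2 can give. After median centring the genes above were Klf17, Zfp352 and L1td1, with 17.8% of all genes, and none of the 9 lay below, with 13.5% of all genes. After quantile normalization the same 3 genes lay above, with 14.6% of all genes, and Id3, Jun and Alpl lay below, with 19.0%. Zfp352 and L1td1 thus lay above the controls under all 3 scalings, while the order at Lin28a, Mycl, Id3, Klf17, Jun and Alpl depended on the scaling, and Foxd3 overlapped under all 3. The median difference of the 9 genes was 0.27, beside 0.14 over all genes, and 7 of the 9 were above that gene median. Less the gene median, the difference was 0.61 at L1td1, 0.44 at Zfp352 and -0.39 at Id3. The gene median itself was 0.03 after median centring and -0.03 after quantile normalization.

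The distance from each gene to the nearest point where a profile crosses 0 measures how far it lies from a timing transition. In the mean profile 4 of the 9 genes, Jun, Mycl, L1td1 and Foxd3, lay within 500 kb of a crossing, beside 35.5% of all genes. The distance was 183 kb for Jun, 301 kb for Mycl, 385 kb for L1td1, 412 kb for Foxd3, 882 kb for Zfp352, 2051 kb for Klf17, 2394 kb for Lin28a, 4527 kb for Id3 and 4752 kb for Alpl. The median of the 9 was 882 kb, beside 890 kb over all genes. Id3 and Alpl were at percentiles 97.85 and 98.39 of this distance among the measured genes. The nearest crossings were on the same side of each gene in all 4 profiles.

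The genotypes did not overlap in this distance at 4 genes. Klf17 was 2011 and 2031 kb from its crossing in control and 2075 and 2093 kb in deletion cells, 62.5 kb farther. Zfp352 was 859 and 795 kb away in the controls, against 897 and 894 kb in deletion cells, 68.8 kb farther, so the late domain reached farther on that side. That crossing lies on a shallow shoulder, with a mean score of 0.19 at 1000 kb below the gene, and its difference was 203.5 kb after quantile normalization. It was 101 kb without control replicate 1 and 37.0 kb without control replicate 2. Among all genes, 9.68% had both deletion distances above both control distances.

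Lin28a and Id3 were nearer in both deletion profiles, where 14.8% of all genes were. They share 1 crossing, and the mean distance to it fell by 22.7 kb, less than 5 steps of 5 kb. Lin28a was 2404 and 2406 kb from it in control and 2382 and 2384 kb in deletion cells. For each of these 4 genes the exact two-sided permutation p was 0.333, again the smallest possible.

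At the other 5 genes the genotypes overlapped in distance. Jun was 227 and 249 kb from its crossing in control and 152 and 238 kb in deletion cells, a difference of -42.9 kb that lay mostly in deletion 1. The difference at Jun was -184.5 kb with zero set at each profile's median and -75.0 kb after quantile normalization. L1td1 was 419 and 281 kb away in the controls, against 275 and 337 kb in deletion cells. The spread between control profiles there, an SD of 97.6 kb, exceeded the difference of -44.2 kb. Mycl was 293 and 316 kb away in the controls, against 282 and 327 kb in deletion cells, with a difference of 0.41 kb. Foxd3 and Alpl differed by -18.6 and -15.9 kb.

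**Figure D4:**
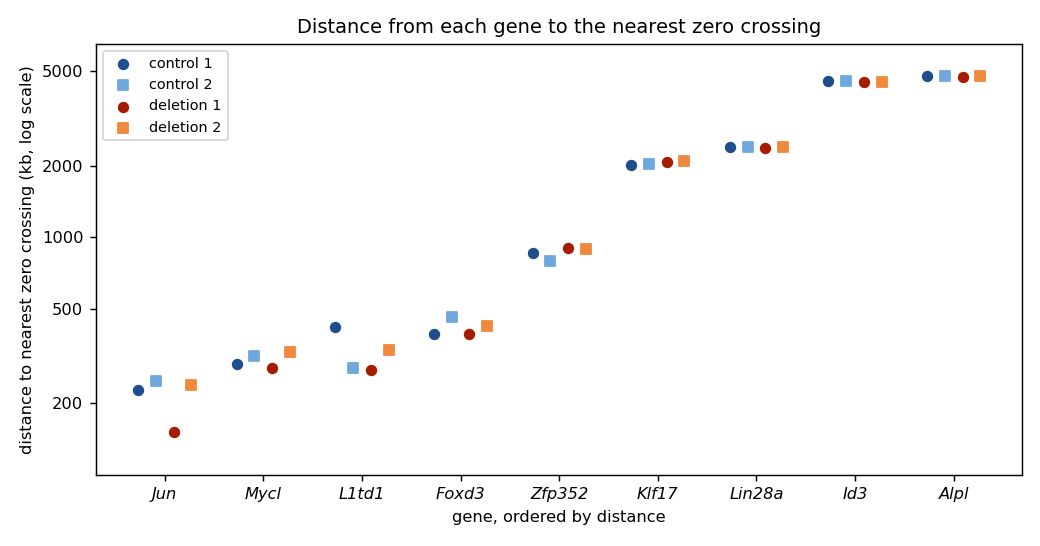
Distance in kb from each gene midpoint to the nearest zero crossing (vertical axis, log scale) in each of the 4 profiles, with genes ordered by distance. Jun, Mycl, L1td1 and Foxd3 lie between 152 and 461 kb from a crossing, and Id3 and Alpl at 4515 kb or more.

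Genes more than 1 Mb away with the most similar scores were found by Euclidean distance over the 4 profiles, which is a description of 4 values per gene. For L1td1 it was Invs, a gene for a ciliary protein 50.4 Mb away, at a distance of 0.31, with scores of 2.39 and 2.60 in the controls, against 2.75 and 3.48 with the deletion. For Zfp352 it was Lingo2, a neuronal membrane protein gene, at a distance of 0.42. For Klf17 it was Bag1, a co-chaperone gene, at 0.11, and for Id3 it was Trappc3, a vesicle tethering factor gene, at 0.15. The distance was thus larger at L1td1 and Zfp352 than at Klf17 and Id3, and it was not set against the same distance over all genes.

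A second list held 15 other genes of chromosome 4 with roles in self-renewal or the early embryo, among them chromatin regulators and oocyte genes. By limma 0 rose and 0 fell, 15 missed the threshold, with 0 at an unadjusted p under 0.05, and in all 4 profiles 13 of them were early and 2 were late. The late ones were Oog2 and Oog3, oocyte genes of a multicopy family at which read assignment is uncertain, with overlap of genotypes at both. Oog2 had a mean score of -2.23 in control and -1.88 in deletion cells, and Oog3 of -2.39 and -2.14. The median difference was 0.09, below the 0.14 of all genes. Both deletion profiles lay above both controls at 2 of the 15 genes, Mad2l2 and Zfp462, beside 15.1% of all genes. They lay below both controls at 0, beside 6.53% of all genes. Mad2l2, which encodes a mitotic checkpoint and repair protein needed for germ cells, differed by 0.50. Jak1, the kinase of the LIF receptor, had the highest difference, 0.76, which was -0.07 in number 1 and 1.59 in number 2. Tcea3, a transcription elongation factor gene, differed by -0.10, with overlap of genotypes.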

How the data were processed

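Repli-seq timing profiles of chromosome 4 were analysed, 2 per genotype, each from an early and a late S-phase library of 40000 cells labelled with BrdU for 2 h. The values are scores deposited by the authors and scaled by them to a common interquartile range, per the file headers and name. It was 4.60 in each column. The submitters' processing notes name Bowtie2, SAMtools, bedtools and mm10 without versions. The log base and any smoothing are not given in the sources used here.

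Of 31301 positions, 30659 had a score in every profile and were used. Each position was taken as the start of a 5 kb bin. Gene coordinates came from RefSeq (GRCm38.p6), and 1301 of 1328 protein-coding genes overlapped a used position. Genotypes were compared with limma 3.58.1 (lmFit, eBayes) in R 4.3.3 over all 1301 genes, two-sided, Benjamini-Hochberg adjusted, threshold 0.05, and single values by exact permutation. The fit was run on simulated scores with known differences, in which noise was independent between genes and between profiles. Real scores of close neighbours change together, so the simulation does not show how many real differences the fit would miss. Zero crossings were interpolated between bin centres. A domain is a run of 1 sign in the mean profile.

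The genes and lists were chosen with earlier results of these data known. All 9 genes were named, with neighbours, the most similar genes and the 2 highest and 2 lowest of the second list, but some items are not reported here. Genes of the L1td1 domain and genes behind counts of 5 or fewer were named after their values were seen. Alternatives were the replicate number as a block, other scalings, other positions per gene, limma's trend and robust options, other zero levels and leaving out each profile. The count of genotype order under other scalings was added after seeing the data.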

Additional observations from a re-analysis of the deposited data

How the results depend on the processing

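With the replicate number as a block, 0 of the 9 genes and 0 of all 1301 genes were called by limma, with 3 and 165 at an unadjusted p under 0.05 and a lowest adjusted p of 0.29 among the 9. The labels do not state that the numbers are pairs. Profiles of the same number correlated at 0.9885 and 0.9844 across positions, above every other pair of profiles. In the other alternatives 0 of the 9 genes were called, and the count over all genes ranged from 0 to 4 with single profiles left out. The 4 were called without deletion replicate 1 and held none of the 9 genes. The number of genes early in every profile was 8 throughout. The median difference of the 9 genes ranged from 0.12 after quantile normalization to 0.33 without control replicate 2. Signs turned at Foxd3 (-0.013) and Jun (-0.11) after quantile normalization, and with single profiles left out at Jun (-0.15 to 0.45) and Alpl (-0.46 to 0.13). The distance to a crossing did not overlap between genotypes at 4 of the 9 genes. Over all genes, 9.68% were farther and 14.8% nearer in both deletion profiles. Among the 9 the number was 6 with zero at each profile's median and 5 after quantile normalization. It was 6 to 8 with single profiles left out, where fewer profiles can overlap. No share over all genes is given for these alternatives, so their counts are not read as a result about the 9 genes. Lin28a and Id3 share 1 crossing and are not separate counts. For distance differences in kb, signs turned at Mycl (-14.5 with zero at each profile's median, -2.56 after quantile normalization) and L1td1 (18.1 after quantile normalization). With single profiles left out they turned at Foxd3 (-54.1 to 16.8), Mycl (-22.4 to 23.2), Jun (-85.9 to 0.21), Alpl (-47.5 to 15.7) and L1td1 (-113 to 24.8). The cause of these turns was not tested. The unknown read depth and 2 profiles per genotype limit all differences.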
